A study of Mus musculus with 10 samples.

Results

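The genes described here encode the heavy chains of major histocompatibility complex (MHC) class I (H2-K1, H2-D1, H2-Q4, H2-Q6, H2-Q7 and H2-T23), their light chain (B2m), a subunit of the peptide transporter (Tap1) and inducible subunits of the proteasome (Psmb8 and Psmb9). They are 10 of the 26504 genes listed in the count tables. They were chosen because earlier results of these data showed their levels to differ between the library groups, so their group differences are given as a description and without p-values. The cells are endothelial cells (ECs) of mouse femur and tibia, taken as cells with 500 to 6000 genes, under 25% mitochondrial unique molecular identifiers (UMIs, 1 per captured transcript) and at least 2 UMIs of Cdh5, Pecam1, Egfl7 and Kdr together. This rule kept 45070 of 46283 cells that passed the filter on genes and mitochondrial UMIs.

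All 10 libraries came from Cdh5-mTnG reporter mice of strain C57BL/6, in which the promoter of Cdh5, the gene of the endothelial junction protein VE-cadherin, marks ECs. After depletion of lineage-positive blood cells, GFP and tdTomato double-positive cells were sorted. The juvenile group was 3 weeks old and held male and female mice, the adult group was 12 weeks old and the aged group 75 weeks old. The parathyroid hormone (PTH) and alendronate groups were 12 weeks old, and the adult, aged, PTH and alendronate groups were female. PTH given intermittently builds bone and alendronate, a bisphosphonate, slows its resorption. Each group had 2 libraries. By the study's methods the sequencing was done a single time per group with pooled animals, so both libraries of a group may come from the same pool. The p-values then measure only the spread between libraries, which may be technical, and not that between animals. The number of ECs was 8094 in juvenile, 11034 in adult, 4682 in aged, 9659 in PTH and 11601 in alendronate libraries.

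Class I molecules show peptides from inside a cell to CD8 T cells and natural killer cells. Proteasomes cut the peptides, the TAP transporter moves them into the endoplasmic reticulum, and the heavy chain takes up a peptide together with beta-2 microglobulin. Interferon raises the transcription of these genes, and the regulator NLRC5 acts at a shared promoter module of the class I genes. H2-K1 and H2-D1 are the classical heavy chains of this strain, whereas H2-Q4, H2-Q6, H2-Q7 and H2-T23 are non-classical, and H2-T23 encodes Qa-1.

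The promoters of the genes were compared first, because the group differences described further on were unequal among heavy chains. RefSeq sequence of GRCm38.p6 is printed 5′ to 3′ on the strand of the gene, for 8 of the 10 genes, 150 bases each and 300 for Tap1, with matches of any of 5 patterns, searched on both strands, in capitals. Capitals mark a strict form of the kappa-B element read by NF-kappa-B (the first run of capitals in H2-K1). A second form (the first run in H2-Q4) has A in place of G as the fourth base and the fifth base free. Also in capitals are the core of the interferon-stimulated response element (the first run in B2m, with a free pair of bases in its middle), TGACG, part of the cAMP response element and of the X box, and CCAAT, bound by NF-Y.
H2-K1 (chr17:34000319-34000468, minus strand): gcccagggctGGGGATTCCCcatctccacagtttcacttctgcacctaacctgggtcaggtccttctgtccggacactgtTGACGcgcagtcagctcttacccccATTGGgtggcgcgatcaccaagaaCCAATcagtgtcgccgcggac
H2-D1 (chr17:35262913-35263062, plus strand): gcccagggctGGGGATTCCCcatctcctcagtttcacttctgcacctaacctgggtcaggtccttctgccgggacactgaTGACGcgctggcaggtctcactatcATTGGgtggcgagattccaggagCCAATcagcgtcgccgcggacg
H2-Q4 (chr17:35379434-35379583, plus strand): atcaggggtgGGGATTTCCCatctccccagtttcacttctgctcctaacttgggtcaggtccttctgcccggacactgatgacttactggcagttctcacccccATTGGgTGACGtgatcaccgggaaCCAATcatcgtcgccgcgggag
H2-Q6 (chr17:35424667-35424816, plus strand): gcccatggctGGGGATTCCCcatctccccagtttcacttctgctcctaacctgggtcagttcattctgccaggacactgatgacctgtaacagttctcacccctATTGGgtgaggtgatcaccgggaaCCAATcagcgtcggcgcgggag
H2-Q7 (chr17:35439012-35439161, plus strand): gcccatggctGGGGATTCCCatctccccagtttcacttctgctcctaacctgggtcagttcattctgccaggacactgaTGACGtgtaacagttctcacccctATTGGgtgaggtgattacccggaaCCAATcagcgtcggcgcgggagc
H2-T23 (chr17:36032686-36032835, minus strand): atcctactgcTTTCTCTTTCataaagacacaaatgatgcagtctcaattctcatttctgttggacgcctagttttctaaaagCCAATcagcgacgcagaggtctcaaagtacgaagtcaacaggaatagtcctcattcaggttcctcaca
B2m (chr2:122147538-122147687, plus strand): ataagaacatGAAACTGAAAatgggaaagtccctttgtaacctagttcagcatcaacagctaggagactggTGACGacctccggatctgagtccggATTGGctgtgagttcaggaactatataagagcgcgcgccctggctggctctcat
Tap1 (chr17:34187306-34187605, plus strand): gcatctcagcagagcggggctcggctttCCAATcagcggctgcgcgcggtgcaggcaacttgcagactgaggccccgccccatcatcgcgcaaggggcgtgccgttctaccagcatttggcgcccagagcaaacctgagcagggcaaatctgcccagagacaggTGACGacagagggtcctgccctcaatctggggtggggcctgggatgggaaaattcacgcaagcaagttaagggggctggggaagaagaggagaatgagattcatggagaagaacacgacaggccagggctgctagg

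H2-K1, H2-D1, H2-Q6 and H2-Q7 held the strict kappa-B form, which is found in 0.107% of 32851 promoter windows of the mouse. All of these shares, and the matches counted here, refer to windows of 300 bases around the gene start in RefSeq. The printed stretches of 150 bases are a part of them. This start can differ from that of the GENCODE annotation given below, as for H2-D1. H2-Q4 held the second form, found in 0.359% of the windows. H2-T23 had no match to either of these patterns in its window. Like B2m, it matched the core pattern used here for the interferon-stimulated response element, found in 3.44% of windows. Other forms of this element were not searched, so a gene without a match, such as H2-K1 or H2-D1, may still hold one. TGACG was present in 7 of the 10 genes, but in neither H2-Q6, H2-T23 nor Psmb8, and occurs in 20.8% of windows. CCAAT was present in 9, all but Psmb8, and occurs in 37.4% of windows. The windows of Psmb8 and Psmb9 are not printed. The Tap1 window overlaps the promoter of Psmb9, which is transcribed from the opposite strand. The TGACG and CCAAT matches of Tap1 and of Psmb9 are the same bases, counted once for each gene. A match is a description of the letters, not evidence of binding.

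In GENCODE annotation of GRCm38, B2m lies on chromosome 2 from 122147686 to 122153083, and the other 9 lie on chromosome 17. H2-K1 is at 33996017 to 34000347, followed by Psmb9 (34181987 to 34187764), Tap1 (34187553 to 34197225) and Psmb8 (34197721 to 34201454). H2-D1 (35262730 to 35267499), H2-Q4 (35379617 to 35385290), H2-Q6 (35424850 to 35430055), H2-Q7 (35439155 to 35443773) and H2-T23 (36029773 to 36032855) follow. All are protein coding. The first exons of Tap1 and Psmb9 overlap on opposite strands, an exon of H2-Q4 overlaps Gm11131 and an exon of Psmb8 overlaps Gm20496, both on the opposite strand, and the strand setting of the counting is not given in the sources used here.

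The levels in each library are given in the usual depth-normalised unit CPM, computed on the EC sum and scaled by trimmed mean of M values (TMM) factors. In these sums, fewer cells of a vessel type and less RNA per cell cannot be told apart, and the values within vessel types are given further on. The 4 comparisons share the adult libraries. The total of a library ran from 10653583 to 28419323 UMIs and the median EC from 3116 to 5088 UMIs. The aged libraries stood apart from the rest: 55.9% of 16084 tested genes were called between aged and adult libraries (a log2 fold change beyond 0.5 in either direction that passed edgeR at an adjusted p under 0.05), against 18.8% for juvenile, 11.2% for PTH and 7.88% for alendronate. Gene names that begin with U had UMIs in the aged libraries only and were left out. The cells were loaded on more than 1 version of the Chromium kit and the labels do not tie a version to a library, so age and library preparation cannot be told apart. Whether the aged libraries were counted with the same gene annotation as the others is not given in the sources used here, and its part in the aged values was not tested. The aged libraries shared 3 or 4 cell barcodes with any other library and 4 with each other, whereas pairs without an aged library shared 10 to 88. The median mitochondrial share of UMIs per library was 2.37% and 2.49% in aged and 1.16% and 1.17% in adult libraries.

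**Figure D1:**
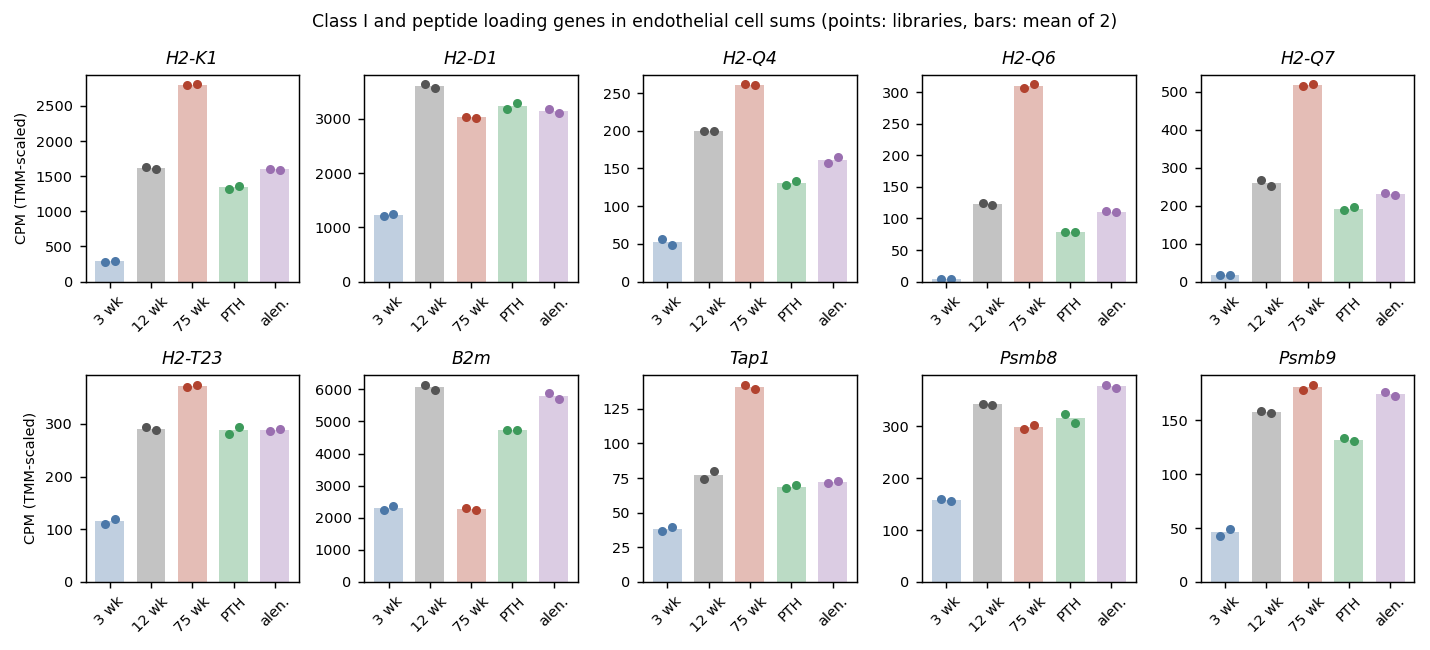
Levels of the 10 genes in EC sums, in CPM scaled by TMM factors on an axis from 0, with 1 point per library and bars for the mean of the 2 libraries of juvenile (3 wk), adult (12 wk), aged (75 wk), PTH and alendronate (alen.) groups. Juvenile points lie below the adult points in all 10 panels, and H2-K1, H2-Q6, H2-Q7 and Tap1 are highest in the aged libraries, whereas B2m is lower in aged (2268 CPM) than in adult libraries (6065 CPM).

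In juvenile ECs, every gene of the set was below its adult level, by 2.02-fold for Tap1 to 30.5-fold for H2-Q6. All 10 were called lower in the edgeR fit, where 12% of all tested genes were called lower and 6.72% higher. Because the juvenile comparison was among those that chose the genes, nothing is read from this count. The median log2 difference of the 10 genes was -1.66, beside -0.01 over all tested genes.

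H2-K1 measured 283 and 294 CPM in juvenile, 1628 and 1606 in adult, 2802 and 2805 in aged, 1323 and 1365 in PTH and 1608 and 1587 CPM in alendronate libraries. H2-D1, the other classical chain, had 1211 and 1252, 3633 and 3570, 3035 and 3019, 3173 and 3289, and 3171 and 3111 CPM in the same order of groups. The juvenile libraries were lowest for both, but the aged libraries were highest for H2-K1 and, with TMM scaling but not with library totals alone, below the adult libraries for H2-D1. Relative to adult, the log2 fold change in juvenile ECs was -2.49 (SE 0.03) for H2-K1 and -1.55 (SE 0.03) for H2-D1.

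H2-Q6 and H2-Q7 had the largest juvenile differences of the 10 genes. H2-Q6 had 3.97 and 4.12 CPM in juvenile, 125 and 122 in adult, 306 and 312 in aged, 78.3 and 78.1 in PTH and 111 and 110.1 CPM in alendronate libraries. Its neighbour H2-Q7 had 18.4 and 18.3, 267 and 253, 514 and 519, 189 and 195, and 232 and 229 CPM. No 2 groups overlapped for either gene, and the order was juvenile, PTH, alendronate, adult and aged in both. The share of all genes without such overlap was not computed. With the 4 main vessel classes weighted equally, alendronate lay above adult, by a log2 difference of 0.05 for H2-Q6 and 0.11 for H2-Q7. Juvenile ECs differed from adult by a log2 fold change of -4.93 (SE 0.06) for H2-Q6 and -3.82 (SE 0.05) for H2-Q7.

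H2-Q4 was less uneven, with 56.6 and 48.8 CPM in juvenile, 199.1 and 199.4 in adult, 261 and 261 in aged, 129 and 134 in PTH and 158 and 165 CPM in alendronate libraries. The log2 fold change in juvenile ECs was -1.92 (SE 0.06). H2-T23, whose product Qa-1 is a ligand of the CD94/NKG2 receptors, had 109.6 and 120.1 CPM in juvenile, 294 and 288 in adult, 370.1 and 374 in aged, 281 and 294 in PTH and 286 and 290.3 CPM in alendronate libraries. The adult, PTH and alendronate libraries overlapped for H2-T23, and only the juvenile and aged libraries stood off from them. Its juvenile log2 fold change was -1.34 (SE 0.05).

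B2m, the light chain common to all of these heavy chains, had 2254 and 2360 CPM in juvenile, 6145 and 5985 in adult, 2309 and 2227 in aged, 4734 and 4722 in PTH and 5897 and 5690 CPM in alendronate libraries. With TMM scaling the juvenile and aged libraries overlapped and were both below the other groups. The log2 fold change against adult was then -1.39 (SE 0.03) in juvenile and -1.42 (SE 0.03) in aged ECs. With library totals alone it was -1.45 in juvenile and -1.06 in aged ECs. B2m and all 6 heavy chains were thus below adult in juvenile ECs. In aged ECs H2-D1 alone of the heavy chains was below adult, with a sign that turned (-0.25 to 0.11) when library totals alone were used for scaling.

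Of the genes that supply peptides, Tap1 had 36.9 and 39.4 CPM in juvenile, 74.3 and 79.9 in adult, 142 and 139 in aged, 67.8 and 69.7 in PTH and 71.6 and 72.8 CPM in alendronate libraries. Psmb8, which replaces Psmb5 in the immunoproteasome, had 161 and 156, 343 and 342, 296 and 302, 325 and 307, and 381 and 375 CPM in the same order. Psmb9, which replaces Psmb6, had 42.3 and 49.4, 158 and 157, 178 and 183, 134 and 130.4, and 176 and 173 CPM. The juvenile libraries were lowest for each, and the highest were the aged libraries for Tap1 and Psmb9 and the alendronate libraries for Psmb8. The juvenile log2 fold changes were -1.02 (SE 0.05) for Tap1, -1.11 (SE 0.04) for Psmb8 and -1.78 (SE 0.06) for Psmb9.

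Transcripts of other cell types moved with the groups as well. The summed level of 12 haematopoietic markers, none of which was at 0 in any group, was 366 to 371 CPM in juvenile, 1244 to 1408 in adult and 2334 to 5146 CPM in aged libraries, and 824 to 1025 in PTH and 1518 to 1616 CPM in alendronate libraries. With only cells of the 5 named vessel classes kept, an alternative added after the data were seen, the juvenile log2 fold change was -2.57 for H2-K1, -5.05 for H2-Q6 and -1.46 for B2m, and the aged one was 0.79, 1.31 and -1.42. Mesenchymal markers summed to 209 to 394 CPM in PTH and 32.3 to 39.0 CPM in adult libraries. Erythroid markers summed to 92.1 to 109.9 CPM in PTH and 408 to 579 in alendronate, against 1557 to 1627 CPM in adult libraries. In aged libraries mural markers (195 to 206 CPM) and megakaryocyte markers (25.4 to 27.1 CPM) were below the adult libraries (429 to 460.5 and 107 to 136 CPM), and erythroid markers ran from 1127 to 5302 CPM. None of the markers measured was at 0, and the part of such transcripts in the differences was not tested.

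In aged ECs, 3 of the 6 heavy chains and Tap1 were called higher and B2m lower. H2-K1 rose by a log2 fold change of 0.79 (SE 0.03), H2-Q6 by 1.32 (SE 0.04), H2-Q7 by 0.99 (SE 0.04) and Tap1 by 0.87 (SE 0.05), and B2m was the only 1 of the 10 called lower. Of all tested genes, 27.9% were called higher and 28% lower, and nothing is read from the counts of 4 higher and 1 lower of 10. H2-Q4 (0.39), H2-T23 (0.36), Psmb9 (0.20), Psmb8 (-0.20) and H2-D1 (-0.25) stayed within the limit of 0.5 in all ECs together. With library totals alone in place of TMM factors, the median over all genes moved to 0.36, H2-Q4, H2-T23 and Psmb9 were also called higher, and H2-D1 (0.11) and Psmb8 (0.16) changed sign. The share of higher genes among those called was 49.9% with TMM and 72.0% with totals alone.

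**Figure D2:**
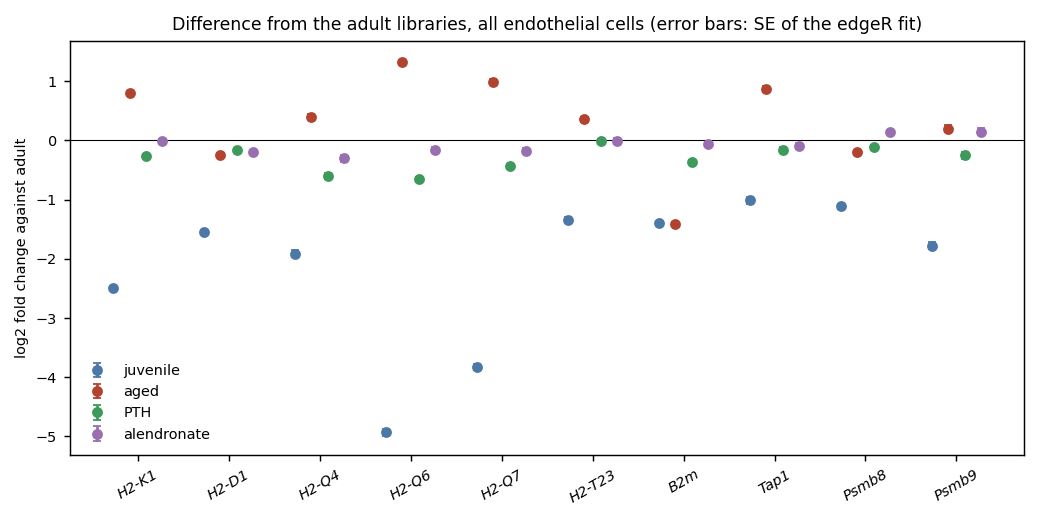
Log2 fold change of each gene against the adult libraries for juvenile, aged, PTH and alendronate libraries, in all ECs, with error bars for the standard error of the edgeR fit. The juvenile points run from -4.93 (H2-Q6) to -1.02 (Tap1), the aged points lie on both sides of 0, and the points of the treatments lie between -0.66 and 0.15.

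Ratios within a library do not depend on its scaling. Per 100 UMIs of H2-D1, the libraries held 23.3 and 23.5 UMIs of H2-K1 in juvenile, 44.8 and 44.98 in adult, 92.3 and 92.9 in aged, 41.7 and 41.5 in PTH and 50.7 and 51.0 in alendronate samples. In all ECs together the libraries of a group lay within 1 UMI of each other and no groups overlapped. The share of other gene pairs with this pattern was not computed. Within classes, PTH overlapped adult in bmEC-like cells (51.4 and 53.9 against 52.8 and 52.0). PTH lay above adult in rEC-like cells (40.3 and 40.4 against 36.5 and 39.0). It lay below adult in mpEC-like (38.5 and 38.4 against 40.1 and 40.4) and aEC-like cells (32.2 and 32.6 against 34.9 and 34.9). Per 100 UMIs of the 6 heavy chains together, there were 134 and 136 UMIs of B2m in juvenile libraries, 99.99 and 99.12 in adult, and only 31.7 and 30.5 in aged libraries. PTH libraries had 91.5 and 88.2 and alendronate libraries 106 and 104. H2-Q6 per 100 UMIs of H2-Q7 was 21.5 and 22.6 in juvenile, 46.8 and 48.2 in adult, 59.6 and 60.2 in aged, 41.5 and 40.0 in PTH and 47.9 and 48.2 in alendronate libraries, the adult and alendronate libraries overlapping. Within classes, the aged ratio was above adult in bmEC-like cells (61.4 and 63.6 against 41.2 and 43.7), overlapped adult in mpEC-like cells (54.9 and 52.4 against 50.5 and 54.3), and was below adult in aEC-like (64.9 and 67.4 against 72.1 and 72.3) and rEC-like cells (60.8 and 66.2 against 75.8 and 68.0).

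**Figure D3:**
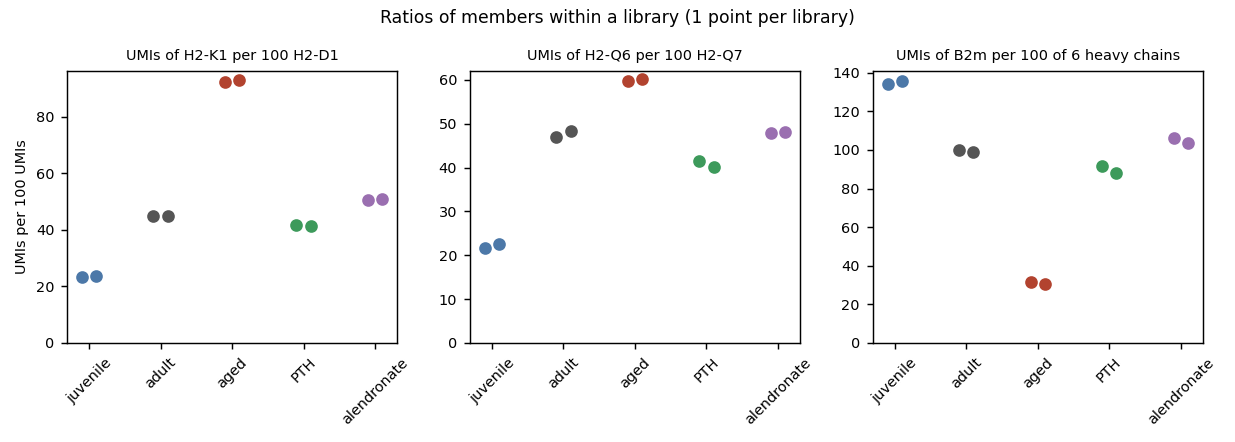
UMIs of H2-K1 per 100 UMIs of H2-D1, of H2-Q6 per 100 of H2-Q7 and of B2m per 100 of the 6 heavy chains together, with 1 point per library and axes from 0. In all ECs together, the first 2 ratios are lowest in juvenile and highest in aged libraries, an order that H2-Q6 per 100 of H2-Q7 does not keep within mpEC-like, aEC-like or rEC-like cells (23.3 against 92.9 UMIs at the extremes of the first), and the third is highest in juvenile (up to 136) and lowest in aged libraries (down to 30.5).

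Under PTH, 8 of the 10 genes had a log2 difference from adult within 0.5. H2-Q4 (-0.60, SE 0.06) and H2-Q6 (-0.66, SE 0.04) were called lower, where 5.7% of all tested genes were called lower and 5.55% higher. B2m (-0.36, SE 0.03) and H2-K1 (-0.27, SE 0.03) were not called. With the 4 main vessel classes weighted equally the H2-Q6 difference was -0.49, within the limit, and that of H2-Q4 was -0.65. Under alendronate, none of the 10 was called, where 4.22% of all tested genes were called higher and 3.66% lower. The differences ran from -0.30 (SE 0.05) for H2-Q4 to 0.15 (SE 0.05) for Psmb9, and the H2-K1 value of -0.02 was within its SE.

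The other genes of the pathway were read from a list of 43, of which 36 were tested, with adjusted p from edgeR over all 16084 genes. In juvenile ECs, 13 were called lower, none higher and 23 neither, with a median log2 fold change of -0.22, beside 12% lower, 6.72% higher and a median of -0.01 over all tested genes. TAPBPR, the peptide editor encoded by Tapbpl, fell by 1.32 (SE 0.07, adjusted p = 6.52e-09) and the non-classical heavy chain H2-T22 by 1.08 (SE 0.05, adjusted p = 2.27e-09). Nlrc5 and Irf1 fell as well, whereas no interferon receptor and no constitutive catalytic subunit of the proteasome (Psmb5, Psmb6 and Psmb7) was called. Psmb10, Psme1 and Psme2 fell, and Psme3 did not pass the test. The list was chosen with earlier results known and gives no independent support to the direction.

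In aged ECs, 6 of the 36 were called higher and 11 lower, where 27.9% and 28% of all tested genes were, so the counts do not stand out from the background. Fcgrt, the class I-like neonatal Fc receptor, which also pairs with beta-2 microglobulin, fell by 1.64 (SE 0.03, adjusted p = 2.59e-13). The constitutive proteasome subunits Psmb7 (-1.56, SE 0.04, adjusted p = 5.47e-12) and Psmb6 (-1.33, SE 0.04, adjusted p = 8.01e-12) fell too. Psmb9 per 100 UMIs of Psmb6 therefore came to 133 and 134 in aged, against 46.9 and 46.2 in adult and 13.3 and 15.0 in juvenile libraries. Fcgrt was also higher in bmEC-like and mpEC-like and lower in aEC-like and rEC-like cells, as given further on. Of 11034 adult ECs, 5708 were bmEC-like, 2660 mpEC-like, 1300 aEC-like and 700 rEC-like. Of 4682 aged ECs, 1055, 1370, 1207 and 846 were, in the same order. The part of these shares in the Fcgrt difference was not tested. Cd1d1, which presents lipids, was the only gene of the list with at least 20 CPM that was called under either treatment, and it differed in opposite directions: it rose by 0.59 (SE 0.06, adjusted p = 7.34e-06) under PTH and fell by 0.57 (SE 0.06, adjusted p = 3.31e-05) under alendronate. Its levels were 32.0 and 34.0 CPM in adult, 48.5 and 50.2 in PTH and 22.7 and 21.9 CPM in alendronate libraries. Cd1d1 was also higher in mpEC-like and lower in rEC-like cells, as given further on. The mpEC-like cells were 2660 of 11034 ECs in adult and 3458 of 9659 in PTH libraries. The rEC-like cells were 700 of 11034 ECs in adult and 1996 of 11601 in alendronate libraries. The part of these class shares in the Cd1d1 differences was not tested. Below 20 CPM, Nlrc5 was also called lower under PTH (-0.57, SE 0.10, adjusted p = 0.00108). In aged ECs it was called higher (1.70, SE 0.08, adjusted p = 6.80e-10), with 41.9 and 38.7 CPM against 11.9 and 12.8 CPM in adult libraries, and 4 of the 7 regulators on the list were called higher there. Nlrc5 was named after its values were seen.

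Vessel classes were found by clustering in which the 10 genes and the pathway list took no part, and carry the names of the marker lists they matched: bone marrow sinusoidal (bmEC-like), metaphyseal (mpEC-like), arterial (aEC-like), remodelling-associated (rEC-like) and proliferating (pEC-like). The juvenile difference was fitted in the 4 classes other than pEC-like. All 10 genes were called lower in bmEC-like, mpEC-like and aEC-like cells and all but Tap1 (-0.94, SE 0.31) in rEC-like cells, beside 9.61%, 8.17%, 5.43% and 1.84% of all tested genes called lower in these classes. For H2-K1 the log2 fold change was -2.51 in bmEC-like, -2.72 in mpEC-like, -2.33 in aEC-like cells and -2.25 in the rEC-like class. For H2-D1 it was largest in bmEC-like cells (-1.77, SE 0.03) and smallest in aEC-like cells (-1.01, SE 0.05), a difference between classes that was not tested. The juvenile rEC-like sums came from 146 cells.

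**Figure D4:**
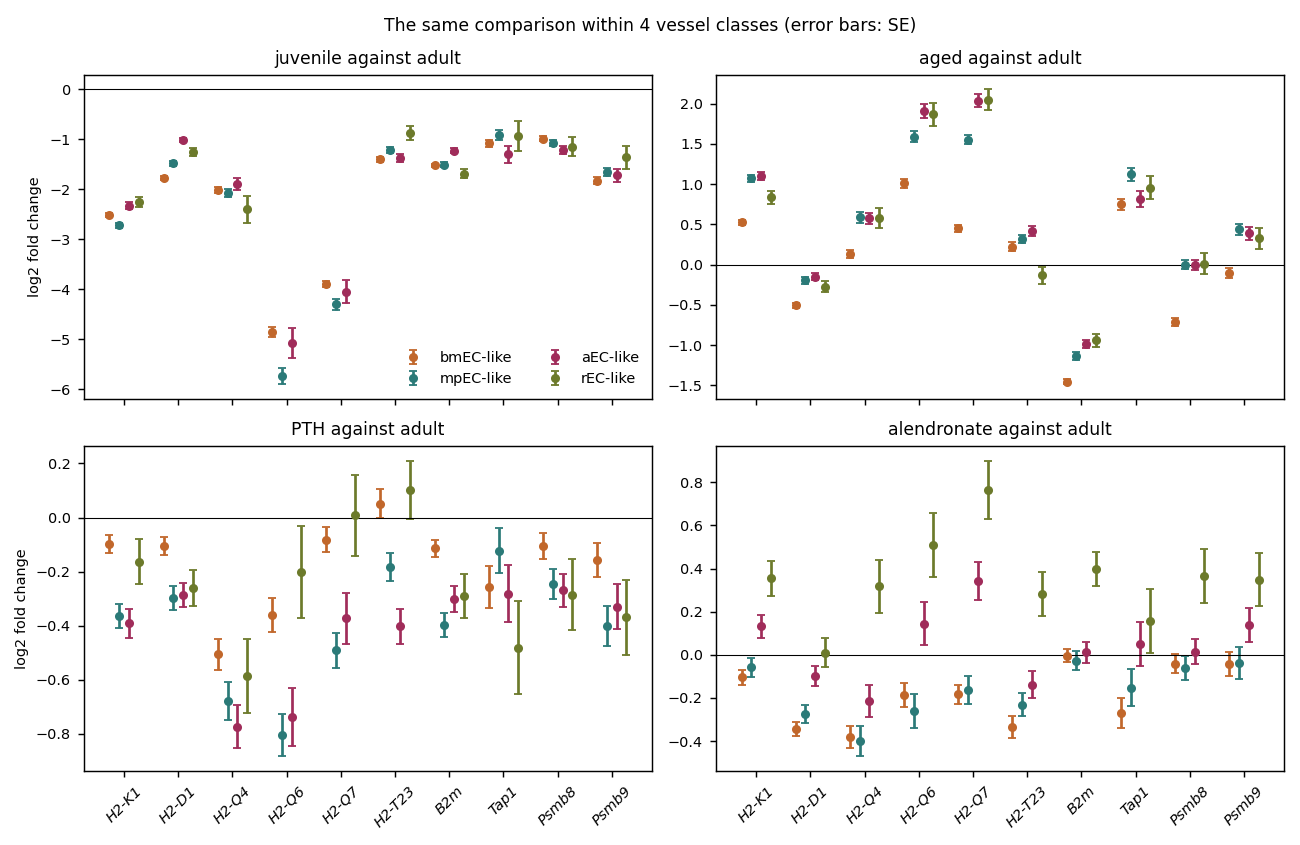
Log2 fold change against adult within bmEC-like, mpEC-like, aEC-like and rEC-like cells, 1 panel per comparison with its own axis, error bars for the standard error of the edgeR fit. H2-Q6 and H2-Q7 in juvenile rEC-like cells are not drawn, since their sums hold 0 and 1 UMIs. In the aged panel H2-Q7 runs from 0.45 in bmEC-like to 2.05 in rEC-like cells, and in the alendronate panel the rEC-like points are the highest for all 10 genes.

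The aged difference was present in each class for H2-K1 (0.524 to 1.101), H2-Q6 (1.01 to 1.91), Tap1 (0.75 to 1.12) and, in the other direction, B2m (-1.46 to -0.94). Of all tested genes, 53% were called in bmEC-like, 52.3% in mpEC-like, 47.4% in aEC-like cells and 43.5% in the rEC-like class. H2-Q7 rose by 2.05 (SE 0.13) in rEC-like, 2.04 (SE 0.08) in aEC-like and 1.55 (SE 0.06) in mpEC-like cells and was 0.45 (SE 0.04) and not called in bmEC-like cells. H2-Q4, not called in all ECs, was called higher in mpEC-like (0.59, SE 0.06), aEC-like (0.58, SE 0.07) and rEC-like cells (0.58, SE 0.12) and was 0.13 (SE 0.05) in bmEC-like cells. H2-D1 (-0.51, SE 0.03) and Psmb8 (-0.71, SE 0.05) were called lower in bmEC-like cells only. H2-D1 passed the limit of 0.5 narrowly there and was below 0 in the other classes as well (-0.28 to -0.15). The difference between classes was not tested. A cluster of shallow cells led by Gm10800 and Gm10801 made up 37.9% of aged and 16.6% of adult bmEC-like cells, and its part in these values was not tested.

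Under PTH, H2-Q4 was called lower in all 4 classes, from -0.51 (SE 0.06) in bmEC-like to -0.77 (SE 0.08) in aEC-like cells, where 1.47% of all tested genes in bmEC-like, 4.39% in mpEC-like, 1.89% in aEC-like cells and 2.89% in the rEC-like class were called lower. H2-Q6 was called lower in mpEC-like (-0.80, SE 0.08) and aEC-like cells (-0.74, SE 0.11). Under alendronate, all 10 values in rEC-like cells were above 0 and all 10 in bmEC-like and in mpEC-like cells were below 0. Some lay within their SE, such as B2m in bmEC-like (-0.004, SE 0.031) and H2-D1 in rEC-like cells (0.010, SE 0.066). The share of all genes with these signs was not computed, and the difference between classes was not tested. H2-Q7 in rEC-like cells (0.76, SE 0.13) was the only value called, where 1.93% of all tested genes were called in rEC-like, 5.09% in bmEC-like, 5% in mpEC-like and 3.57% in aEC-like cells. The rEC-like class held 2 clusters, led by Timp4 and by Tagln, with 64.4% and 35.6% of the class in adult, 58.8% and 41.2% in alendronate and 36.1% and 63.9% in PTH libraries. In CPM without TMM factors, H2-Q7 within the Timp4-led cluster had 82.5 and 117 CPM in adult and 214 and 225 CPM in alendronate libraries, and within the Tagln-led cluster 152 and 135 CPM in adult and 191 and 184 CPM in alendronate libraries.

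B2m and H2-D1 were highest in different vessel classes. In each of 10 libraries, bmEC-like cells had the highest B2m of the 4 main classes, with a mean of 5392 CPM over the libraries, against 4093 in mpEC-like cells, 3505 in aEC-like cells and 3422 in the rEC-like class. Among the same 4 classes, H2-D1 ran the other way in each library. It was lowest in bmEC-like cells (mean 2552 CPM) and highest in aEC-like cells (mean 4055 CPM). Its mean in pEC-like cells was 2430 CPM, over 9 libraries. Psmb8 also peaked in aEC-like cells of every library, with a mean of 428 CPM against 244 in bmEC-like cells. The differences from the mean of the other classes, fitted with the library as a block, were 0.50 (SE 0.05) for B2m in bmEC-like, 0.53 (SE 0.06) for H2-D1 in aEC-like and 0.63 (SE 0.06) for Psmb8 in aEC-like cells. The first pair of these lie at the limit of 0.5. The H2-D1 value was below the limit with DESeq2 or its size factors, with the lower clustering resolution, and without juvenile replicate 1 or 2, aged replicate 2 or alendronate replicate 1. The B2m value was below it with the higher resolution and without juvenile replicate 1 or PTH replicate 1.

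H2-T23 had the largest of the class differences that were called. In 8 of 10 libraries it peaked in rEC-like cells, the aged libraries being the exceptions with 459 and 506 CPM in rEC-like and 533 and 519.6 CPM in aEC-like cells. Its mean over libraries was 515 CPM in rEC-like, 343 in aEC-like, 301 in mpEC-like, 228 in bmEC-like and 144 CPM in pEC-like cells. In CPM without TMM factors, H2-T23 in adult rEC-like cells was 572 and 643 in the Tagln-led and 458 and 398 in the Timp4-led cluster, and the Timp4-led share of the class ran from 36.1% in PTH to 67.8% in aged libraries. Relative to the other classes together, it was 1.12 (SE 0.07) higher in rEC-like cells on the log2 scale and 1.14 (SE 0.10) lower in pEC-like cells. In juvenile libraries it had 287 and 276 CPM in rEC-like cells and 89.3 and 100.1 CPM in bmEC-like cells, so the order held where levels were lowest. H2-Q7 went the other way and peaked in bmEC-like cells in 8 of 10 libraries (log2 difference 0.61, SE 0.10). The exceptions were the aged libraries, with 501 and 532 CPM in bmEC-like, 631 and 676 in mpEC-like and 702 and 655 CPM in aEC-like cells. In all, 6 of 50 gene and class pairs were called, 2 in aEC-like, 2 in bmEC-like and 1 each in rEC-like and pEC-like cells, where 27.9%, 31.4%, 26% and 23.4% of all tested genes were called. No gene was called in mpEC-like cells, where 15.6% of all were.

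**Figure D5:**
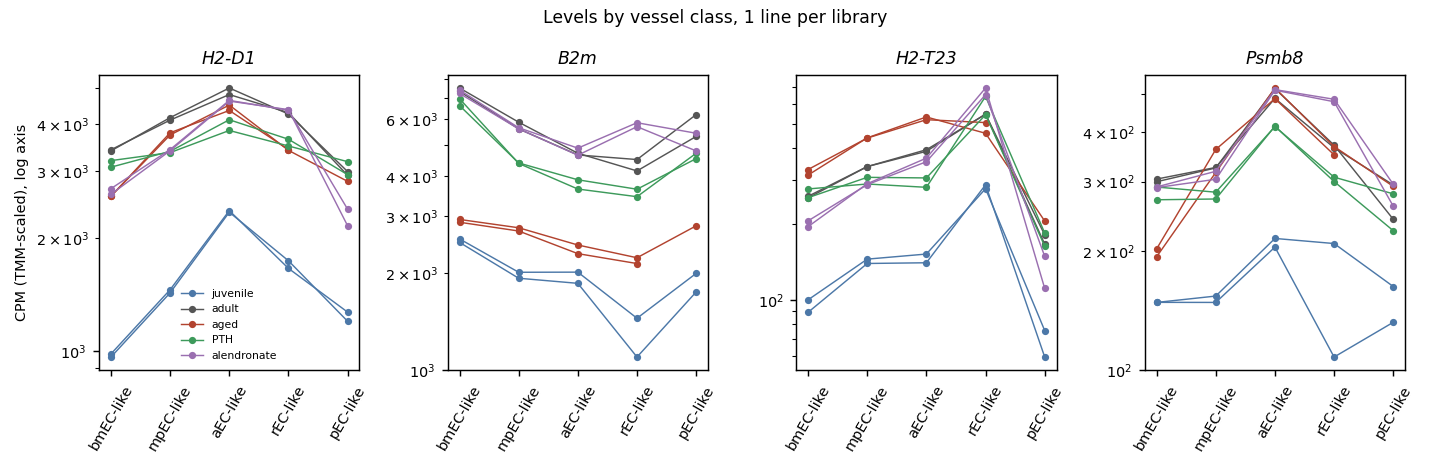
Levels of H2-D1, B2m, H2-T23 and Psmb8 in the 5 vessel classes, in CPM scaled by TMM factors on a log axis, 1 line per library (the aged pEC-like sum of replicate 2 had too few cells). H2-D1 and Psmb8 peak in aEC-like cells, B2m is highest in bmEC-like cells among the 4 main classes, and H2-T23 falls from 515 CPM in rEC-like to 144 CPM in pEC-like cells on average.

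Genes of the wider pathway also differed by class. Fcgrt rose by 1.35 (SE 0.04, adjusted p = 7.23e-32) in bmEC-like and by 0.74 (SE 0.04, adjusted p = 4.20e-20) in mpEC-like cells and fell by 1.32 (SE 0.05, adjusted p = 1.85e-28) in aEC-like and by 0.86 (SE 0.05, adjusted p = 5.12e-21) in rEC-like cells. The chaperone Calr was higher (0.58, SE 0.05, adjusted p = 2.93e-14) and Tapbpl lower (-0.57, SE 0.06, adjusted p = 9.20e-11) in bmEC-like cells, and Tapbpl was higher in aEC-like cells (0.89, SE 0.06, adjusted p = 5.87e-17). Cd1d1 was higher in mpEC-like (1.36, SE 0.09, adjusted p = 9.55e-18) and pEC-like (0.62, SE 0.16, adjusted p = 0.00188) and lower in aEC-like (-1.13, SE 0.13, adjusted p = 9.58e-11) and rEC-like cells (-1.25, SE 0.16, adjusted p = 4.22e-09). Ifngr2, a chain of the interferon gamma receptor, was higher in mpEC-like (0.77, SE 0.05, adjusted p = 3.38e-17) and lower in rEC-like cells (-0.92, SE 0.07, adjusted p = 3.69e-15). In pEC-like cells Tap2, the partner of Tap1 in the transporter, was lower by 0.74 (SE 0.08, adjusted p = 2.26e-11) and Irf2 by 0.62 (SE 0.08, adjusted p = 3.92e-08), both on the log2 scale.

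A small cluster of bmEC-like cells was led by Cxcl10 and Cxcl9, chemokines induced by interferon gamma. It held 263 cells, from 0.935% of juvenile to 3.42% of aged bmEC-like cells per library. In the 7 libraries with at least 20 such cells, each of the 10 genes was higher in this cluster than in the other bmEC-like cells of the same library, by 2.98 to 8.51 times for Tap1, 1.33 to 2.60 times for H2-K1 and 1.15 to 1.84 times for H2-D1. In CPM without TMM factors, H2-K1 in the juvenile libraries had 706 and 400 CPM in this cluster and 272 and 281 CPM in the other bmEC-like cells, below the adult values of 1604 and 1597 CPM outside the cluster. The cells were grouped by their expression, and this comparison carries no test. The share of all genes higher in this cluster was not computed, so nothing is read from the count of 10.

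No gene of the set was without UMIs in a group. The lowest sum was that of H2-Q6 in juvenile ECs, with 67 UMIs in each library. The rarer cells fell below the limit of counting: juvenile rEC-like cells had 0 UMIs of H2-Q6 among 438760, which allows a level of up to 6.84 CPM (3 counts over the group), so the adult level of 87.1 CPM, like the floor without TMM factors, was at least 12.7-fold higher. H2-Q7 had 1 UMI there. In juvenile bmEC-like cells, 93 UMIs of H2-Q6 gave 4.59 CPM against 134 CPM in adult bmEC-like cells, again without TMM factors.

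Among all genes, 1 had no UMI in juvenile ECs and at least 100 in every other group. This was Prss34 on chromosome 17, 8.7 megabases before H2-K1, a protease of basophils. It had 3930 and 2946 UMIs in adult libraries, 727 and 160 in aged, 518 and 484 in PTH and 2839 and 964 in alendronate libraries. The UMIs lay in few cells: 93.8% were in haematopoietic-like cells and 68.9% in 10 cells. Mcpt8, another basophil protease, had 6 and 2 UMIs in the juvenile and 1986 and 1879 in adult samples. With a limit of 20 UMIs, 11 genes had no UMI in a group, and none but Prss34 was placed on chromosome 17, though E030002O03Rik and Gm19980 had no position. Mcpt8 and these genes were named after their values were seen.

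Read assignment was examined through the last 500 bases of the longest coding transcript of each gene, cut into words of 90 bases. For H2-K1, H2-D1, H2-Q7, B2m, Tap1, Psmb8 and Psmb9, no word occurred in a transcript of another gene. For H2-Q6 10.9% of the words did (5.11% in other H2 genes), for H2-T23 13.4% (1.22%) and for H2-Q4 9.49% (0%). The shorter H2-Q6 transcript, of 981 bases, shared 42.8% of its end words with H2-Q7, and the longer one shared 0%. How much of the H2-Q6 count came from the shorter transcript was not measured, so its levels are uncertain to an extent that is not known. H2-L, H2-Q8 and H2-Q9 had no row in any table. H2-Q8 and H2-Q9 are in RefSeq but not on the GENCODE chromosomes, and reads from such genes, where present, could have been counted on their neighbours or left out. All groups carry the same strain label.

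After thinning each cell to 1000 UMIs, H2-K1 was found in 22.6% of juvenile, 75.1% of adult, 88.8% of aged, 69.5% of PTH and 75.0% of alendronate ECs, with 62 to 731 shallower cells left out per group. Without thinning the shares were 57.8%, 94.6%, 97.7%, 93.1% and 94.5%. Class I is made by nearly all nucleated cells, and no cell type in the data lacks it. Erythroid-like cells are a cluster within the same ECs, each with at least 2 endothelial UMIs, and are not a separate population free of EC transcripts. In them, thinned likewise, the H2-K1 shares were 7.81% (64 cells) in juvenile, 28.6% (56 cells) in adult and 54.8% (31 cells) in aged libraries, with median depths of 10408, 14050 and 5595 UMIs against 4079, 3215 and 5000 UMIs in ECs. In PTH and alendronate libraries they were 30.5% (82 cells) and 48.1% (54 cells), with median depths of 8742 and 12192 UMIs against 3478 and 3328 UMIs in ECs. Each share was below that of ECs of the same group. By library, erythroid-like cells had 22.2% and 34.5% in adult, 31.7% and 29.3% in PTH and 51.9% and 44.4% in alendronate libraries. Adult and PTH thus overlapped and alendronate lay above adult, in few cells and without a test. In ECs the adult (74.9% and 75.3%) and alendronate libraries (76.2% and 73.9%) overlapped. Other clusters within the ECs differed in direction with age, in CPM without TMM factors. H2-K1 in mesenchymal-like cells was 1723 CPM (102 cells) in adult and 346 CPM (48 cells) in aged libraries. In haematopoietic-like cells it was 659 CPM (171 cells) in adult and 1502 CPM (67 cells) in aged libraries.

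The genes outside the pathway list whose levels followed the set most closely over the 10 libraries were Mndal (Pearson's r = 0.99), Plscr2 (0.98), Enpp4 (0.98), Ifi47 (0.98) and Ppm1h (0.98), out of 6622 genes with at least 20 CPM. Mndal had 92.9 and 97.7 CPM in juvenile, 186 and 189 in adult, 213 and 220.4 in aged, 166 and 172 in PTH and 194 and 190.0 CPM in alendronate libraries. Mndal and Ifi47 belong to interferon-inducible families. The 10 points come from 5 groups that share library scaling, and r is given as a description.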

How the data were processed

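Single-cell 3′ RNA-seq libraries of sorted bone ECs were analysed from the deposited UMI counts per gene and cell, whole numbers that were not normalised by the authors. According to the submitters' processing notes, UMI-tools 1.1.2, STAR 2.7.10a and featureCounts 2.0.3 were used with mm10. The annotation release and the strand setting are not given in the sources used here. Intervals and limits of counts cover counting error only.

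Cells were filtered as stated in the report. No doublet caller was run, and the upper limit on genes was the only guard. Of 46391 distinct barcodes, 1021 occurred in more than 1 library, and at most 88 were shared by any pair. The 276 gene names beginning with U were left out. Cells were clustered with Seurat 5.3.0 at resolution 0.5 (RPCA integration of libraries), without the 10 genes, the pathway list, mitochondrial and sex-linked marker genes among the features. Clusters were named from marker lists, and sums of at least 20 cells per library and class were used.

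Sums per library were fitted over all 10 libraries with edgeR 4.0.16 in R 4.3.3 (filterByExpr, TMM, quasi-likelihood test, Benjamini-Hochberg adjustment over all genes). Calls needed a log2 fold change beyond 0.5 that passed at an adjusted p under 0.05. DESeq2 1.42.0, other scalings, filters, cell sets and clusterings, a replicate block and leaving out each library were alternatives. The scripts were tested on simulated data.

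The genes and lists were chosen with earlier results of these data known. Named were the 10 genes, up to 3 genes of the pathway list with the largest called change and at least 20 CPM in each comparison, the 5 genes most correlated with the set, and genes without UMIs in a group on the chromosome of the H2 genes. A gene of the pathway list that this rule names is not reported here. Replicate numbers did not pair the libraries (correlation of deviations from -0.10 to 0.03), so no block was used.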

Additional observations from a re-analysis of the deposited data

Results flagged for a closer look

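Under alendronate, the genes listed here had both rEC-like libraries above and both libraries of another class below their adult libraries. The other class was chosen for each gene by its values, the share of all genes with such a pattern was not computed, and the difference between classes was not tested. In log2 fold change, H2-Q7 was 0.76 in rEC-like and -0.18 in bmEC-like cells, H2-Q6 was 0.51 in rEC-like and -0.26 in mpEC-like cells, and H2-Q4 was 0.32 in rEC-like and -0.40 in mpEC-like cells. H2-K1 was 0.36 in rEC-like and -0.11 in bmEC-like cells, H2-T23 was 0.28 and -0.33, and H2-D1 was 0.01 and -0.35 in the same classes. Psmb9 was 0.35 in rEC-like and -0.04 in bmEC-like cells, Tap1 was 0.16 and -0.27 in the same classes, and Psmb8 was 0.37 in rEC-like and -0.06 in mpEC-like cells.

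In aged libraries H2-T23 was 0.42 above adult in aEC-like cells and -0.13 in rEC-like cells, also on the log2 scale and with the difference not tested. Gene names beginning with U took 1.52% and 1.53% of all UMIs in the aged libraries and none in the other libraries. Groups of 2 libraries are too small to look for a library that stands apart within a group.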

How the results depend on the processing

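No called value changed direction under the alternatives run. With library totals alone as scaling, 8 of the 10 genes were called in aged ECs in place of 5, H2-Q4 (0.75), H2-T23 (0.71) and Psmb9 (0.55) being added. DESeq2 called 733 genes under alendronate in place of 1268, of which 65.2% were higher against 53.5%. With at least 20 UMIs in the other groups in place of 100, 11 genes had no UMI in a group in place of 1. With each library left out in turn, called genes ranged from 2539 to 3070 in juvenile, 8456 to 9276 in aged, 1312 to 1798 in PTH and 866 to 1280 in alendronate ECs, and 10, 5, 2 and 0 of the 10 genes were called throughout. The number of calls of the 10 genes within classes ranged from 69 to 71 (70 of 160 with all libraries) and between classes from 4 to 7 (6 of 50). With the replicate number as a block, 3000 genes were called in juvenile, 8959 in aged, 1794 in PTH and 1249 in alendronate ECs, and 10, 5, 2 and 0 of the set, with 70 calls within classes. With the PTH numbers crossed, a pairing added after the data were seen, 1790 genes were called. With 4 vessel classes weighted equally, H2-Q6 had a log2 difference of 1.62 in aged ECs, and B2m had -1.53 in juvenile and -1.12 in aged ECs. No such value is given for H2-Q6 in juvenile ECs, whose rEC-like sum is 0. Under the same weights, which give values without a test, H2-Q6 under PTH moved within the limit of 0.5 (-0.49 in place of -0.66), H2-Q4 in aged ECs moved past it (0.51 in place of 0.39), and H2-K1 (0.09), H2-Q6 (0.05), H2-Q7 (0.11) and B2m (0.08) under alendronate turned from below to above 0. The low counts of H2-Q6 and H2-Q7 in juvenile rEC-like cells limit what those sums can show.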

Other observations

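The juvenile libraries held cells of both sexes. Cells with a UMI of a Y-linked gene had 272 CPM of H2-K1 in replicate 1 and 277 CPM in replicate 2, and cells without one had 253 and 267 CPM, without TMM factors. Cells without such a UMI are not a set of female cells, since their median depth was lower (3724 and 3950 against 4527 and 4829 UMIs) and male cells can lack a captured UMI. H2-Q5, a gene of the Q region that was named after its values were seen, had 0.178 and 0.184 CPM in juvenile, 2.53 and 2.87 in adult, 16.8 and 19.9 in aged, 1.45 and 1.99 in PTH and 3.26 and 3.98 CPM in alendronate libraries. The juvenile values rest on 3 UMIs in each library and the PTH values on 15 and 55 UMIs. The transcript end of H2-Q5 was not compared with those of other genes.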
